A study of Mus musculus with 2 samples.

Results

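Basement membranes are sheets of extracellular matrix, and 34 genes for their components were followed here in stromal cells of the mouse mammary gland: 6 type IV collagen chains, 3 other collagens, 5 laminin alpha chains, 5 laminin beta and gamma chains, 4 nidogens and proteoglycans, 6 linkers and matricellular proteins, and 5 genes of the Fraser complex and hemicentins. The genes were picked by name for their place in the basement membrane, and all 34 were found in the list of 33696 genes shared by both libraries. The data were 2 libraries of single-cell RNA sequencing (scRNA-seq) from wild-type C57BL/6 females, 1 at puberty (4 weeks of age) and 1 in adulthood (9 weeks). The sources give 2 females per condition and do not state how many each library held. Each library carried the number of the second replicate, and the labels give no transgene, Cre allele or treatment. Cells had been sorted as negative for CD24 and for lineage markers of blood and endothelium, which takes most epithelial, immune and endothelial cells out of the sample. Transcripts were captured at their 3′ end in 10x Genomics droplets and counted as unique molecular identifiers (UMIs), so a UMI stands for 1 captured molecule.

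The libraries held 255274670 UMIs at puberty and 259549498 in the adult. Of the cell barcodes, 21534 of 21688 at puberty and 22972 of 23183 in the adult passed the filters of at least 500 genes and at most 10% mitochondrial UMIs, with medians of 11763 and 10842 UMIs. The libraries shared 145 barcodes, 0.669% and 0.625% of each. Fibroblasts were taken as cells with a UMI of *Pdgfra* (Pdgfra+), 18878 pubertal and 20999 adult cells. Mural cells, the smooth muscle cells and pericytes that wrap vessels, were taken as cells with no *Pdgfra* UMI and a UMI of *Myh11* or *Rgs5*, 783 and 457 cells. Markers that the rule did not use were read in counts per 1000000 UMIs (CPM). Of the mural genes, *Acta2* was at 7041 and 5244 CPM in mural cells against 25.6 and 12.6 CPM in Pdgfra+ cells, and *Mcam*, *Notch3*, *Cspg4* and *Des* were also higher in mural cells of both libraries. The pericyte genes *Kcnj8* (9.41 and 18.5 CPM) and *Abcc9* (37.6 and 68.7 CPM) were lower in mural than in Pdgfra+ cells at puberty and higher in the adult. The fibroblast gene *Dcn* was at 7843 and 11207 CPM in Pdgfra+ cells against 883 and 521 CPM in mural cells.

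Within the Pdgfra+ cells, 5 subsets were read out by their marker genes. Cells with UMIs of both *Pi16* and *Dpp4* made up 74.1% of Pdgfra+ cells at puberty and 42.2% in the adult, cells with *Gdf10* or *Fmo2* 39.5% and 47.9%, cells with *Thbs4* or *Bmp5* 4.91% and 14.8%, cells with at least 2 UMIs of *Fabp4* 9.42% and 12.2%, and cells with *Crabp1* 1.53% and 12.7%. The subsets overlap. For example, 55.9% of the pubertal and 30.4% of the adult *Gdf10* or *Fmo2* cells also carried *Pi16* and *Dpp4*. UMIs were summed over the cells of a group and divided to CPM. Each stage had 1 library, so no test between stages was possible, every stage difference is between these 2 libraries, and the 95% intervals given cover counting error only.

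A basement membrane lies beneath epithelia and endothelia and surrounds fat, muscle and nerve cells. Its core consists of a laminin polymer that binds cell receptors and a type IV collagen network, joined by nidogens and by the heparan sulfate proteoglycans perlecan (*Hspg2*) and agrin (*Agrn*). In the mammary gland it separates the ducts from the stroma, and stromal cells contribute several of its components.

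Type IV collagen genes stand head to head in pairs, and the pairs are shown because their partners moved together or apart in these cells. In the GENCODE vM21 annotation of GRCm38, *Col4a1* (minus strand, chr8:11198423-11312826) and *Col4a2* (plus strand, chr8:11312805-11449287) overlap by 22 bases at their first exons. *Col4a4* (minus strand, chr1:82448423-82586849) and *Col4a3* (plus strand, chr1:82586921-82722059) lie 71 bases apart, and *Col4a6* (minus strand, chrX:141165403-141474076) and *Col4a5* (plus strand, chrX:141475385-141689234) 1308 bases apart. The sequences below come from the RefSeq promoter table of GRCm38.p6, which held 24 of the 34 members with 250 bases before and 50 after the start. In the first, capitals mark the 22 bases that belong to both genes (plus strand, chr8:11312801-11312830). The second is the whole stretch between *Col4a4* and *Col4a3* (plus strand, chr1:82586850-82586920). The others are the bases upstream of *Col4a5* (plus strand, chrX:141475169-141475384) and *Col4a6* (minus strand, chrX:141474077-141474326), with CCAAT and GGGCGG in either orientation in capitals.
Col4a1/Col4a2: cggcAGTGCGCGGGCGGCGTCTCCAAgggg
Col4a4/Col4a3: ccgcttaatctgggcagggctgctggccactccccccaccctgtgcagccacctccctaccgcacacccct
Col4a5: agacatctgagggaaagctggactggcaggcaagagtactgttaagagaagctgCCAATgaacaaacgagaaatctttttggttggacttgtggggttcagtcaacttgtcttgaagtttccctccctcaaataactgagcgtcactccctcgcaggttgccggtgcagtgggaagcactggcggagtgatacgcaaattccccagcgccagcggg
Col4a6: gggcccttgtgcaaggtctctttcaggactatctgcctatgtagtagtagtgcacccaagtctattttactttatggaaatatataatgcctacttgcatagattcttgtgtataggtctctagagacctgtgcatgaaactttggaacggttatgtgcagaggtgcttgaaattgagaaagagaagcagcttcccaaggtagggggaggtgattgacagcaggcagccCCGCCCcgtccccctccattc

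Over windows of that size, CCAAT stood on either strand in 37.4% of 32851 promoters, GGGCGG in 35.7% and TATAAA in 13.6%. The *Col4a1* window held CCAAT and GGGCGG 1 time each, the *Col4a2* window CCAAT 1 time and GGGCGG 3 times, the *Col4a5* window 1 time each, the *Col4a6* window GGGCGG 1 time, and the *Col4a4* window neither. TATAAA was in none of these 5 windows. The *Col4a1* and *Col4a2* windows cover partly the same bases.

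To ask how the members differed between the stages, their summed UMIs in Pdgfra+ cells were compared. The 34 genes together took 0.652% of all UMIs of pubertal and 0.905% of adult Pdgfra+ cells. With at least 10 CPM in 1 of the sums, 24 members could be compared, and 15 of them were at least 1.5-fold higher in the adult library, 62.5% against a background of 12% of 8645 genes. *Col4a5* alone was at least 1.5-fold lower, 4.17% of the members against 5.09% of the genes. The minimum bears on both counts. *Lamc3* and *Col7a1* reached 10 CPM in the adult sum only. With no minimum 7 members were lower, namely *Col4a5*, *Lama3*, *Lama5*, *Lamb3*, *Npnt*, *Tinagl1* and *Fras1*. The median log2 ratio of adult over puberty was 0.74 over these members and 0.13 over all genes. Another scaling (TMM, which centers the bulk of genes) lowered the log2 ratios by 0.14 and left 12 members higher, with *Col4a3*, *Lama2* and *Hspg2* then under 1.5-fold. The share of all genes past 1.5-fold was not computed for that scaling.

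**Figure D1:**
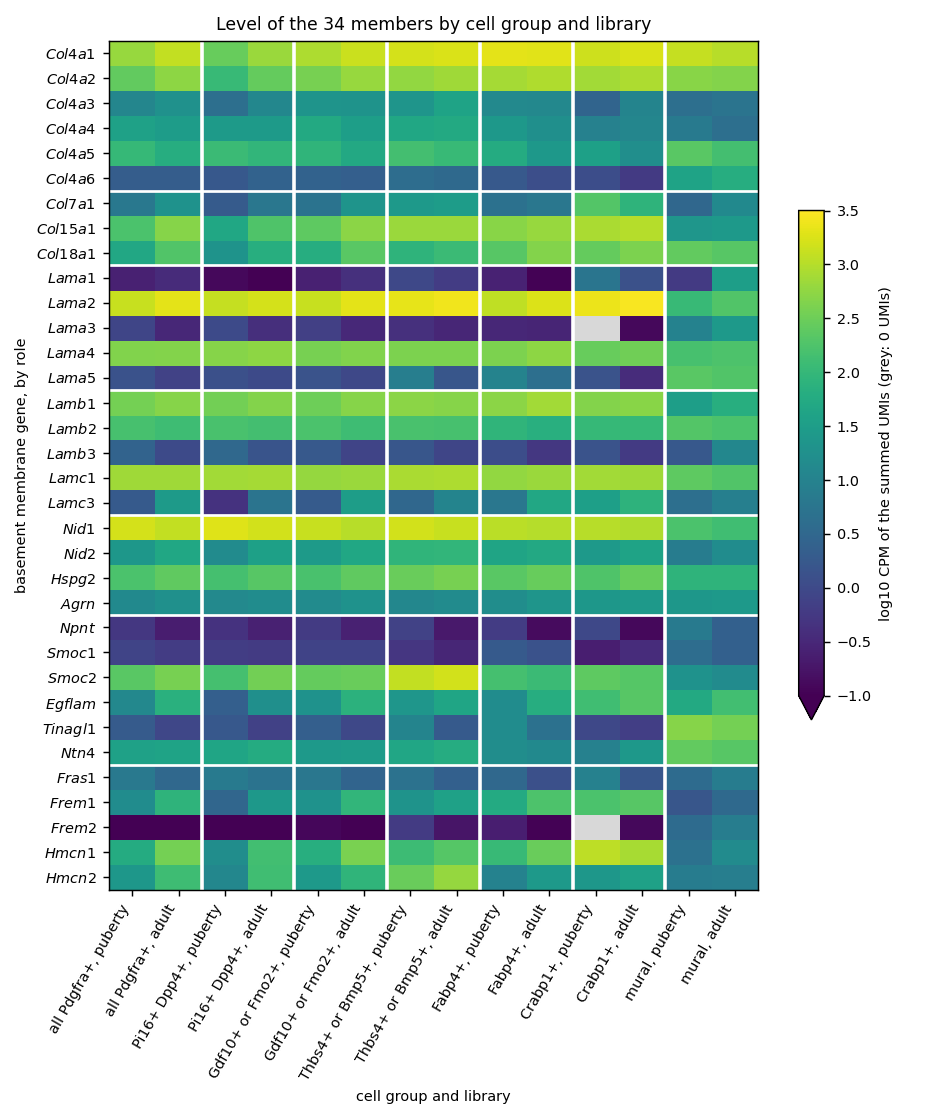
Level of each of the 34 members (vertical axis, ordered by role) in all Pdgfra+ cells, 5 marker-defined subsets and mural cells of the pubertal and the adult library (horizontal axis), as log10 CPM of the summed UMIs. *Lama5* and *Tinagl1* stand out in the mural columns (221 and 477 CPM at puberty), and *Lama2* and *Nid1* in the Pdgfra+ columns (1313 and 1644 CPM at puberty).

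A sum over cells does not separate a shift in the kinds of cells from a change within them, and the kinds did shift. Cells positive for *Pi16* and *Dpp4* and for no other subset went from 49.4% of pubertal to 22.3% of adult Pdgfra+ cells, while cells with *Crabp1* alone went from 0.530% to 4.96% and cells of no subset from 3.74% to 11.9%. When all 7 exclusive categories were given the same weights in both libraries, 7 of the 15 members stayed at least 1.5-fold higher in the adult, namely *Lamc3*, *Hmcn2*, *Egflam*, *Frem1*, *Hmcn1*, *Col18a1* and *Col15a1*, and no member was that much lower. The median log2 ratio of the members was then 0.40 beside 0.11 for all genes. The share of all genes past 1.5-fold with these weights was not computed, so the count of 7 has no background. The weights did not fix the make-up of cells positive for more than 1 subset, 30.7% of pubertal and 35.5% of adult Pdgfra+ cells. Among them, cells with *Crabp1* and with *Gdf10* or *Fmo2* numbered 110 and 1324. How far this moved the equal-weight ratios was not tested.

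**Figure D2:**
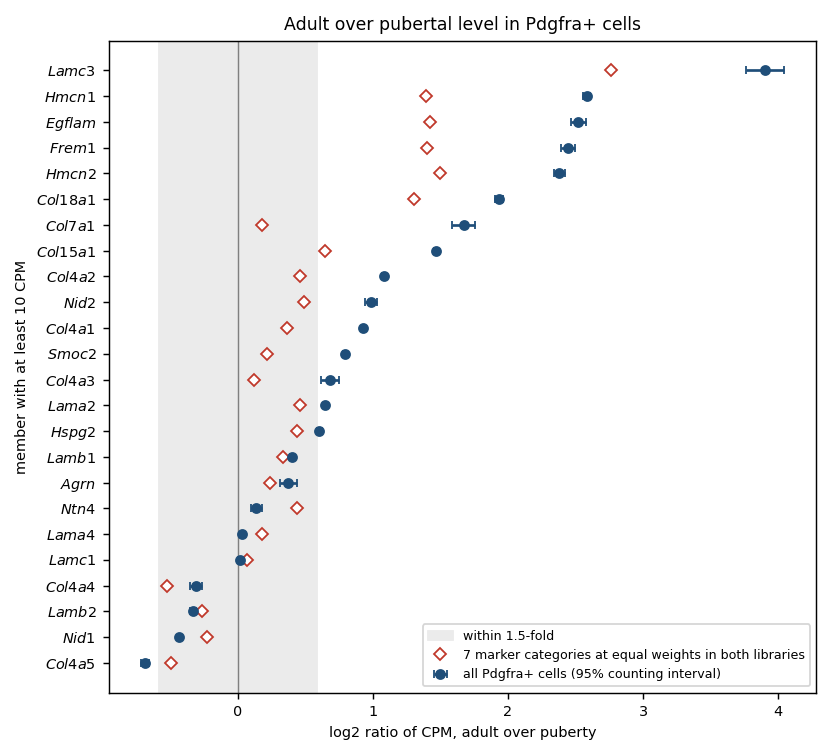
Log2 ratio of adult over pubertal CPM in Pdgfra+ cells (horizontal axis) for the 24 members with at least 10 CPM (vertical axis). Filled points are the summed cells with 95% counting intervals, open diamonds the values with equal weights of 7 marker categories, and the grey band marks less than 1.5-fold. The *Lamc3* point lies farthest to the right at 3.90, and the *Col7a1* diamond has moved into the band at 0.18.

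The subsets were set against the other Pdgfra+ cells of the same library, and a member was counted when it passed 1.5-fold in both libraries. In *Pi16* and *Dpp4* cells 4 of 23 members were higher (17.4% against 7.29% of all genes), *Col4a5*, *Lama4*, *Nid1* and *Ntn4*, and 10 were lower (43.5% against 8.69%), among them all 3 of the other collagens. In *Gdf10* or *Fmo2* cells none of 22 was higher (background 1.83%) and 1, *Ntn4*, was lower (4.55% against 1.84%). In *Thbs4* or *Bmp5* cells 8 of 23 were higher (34.8% against 3.09%), namely *Col4a1*, *Col4a3*, *Col7a1*, *Col15a1*, *Nid2*, *Hspg2*, *Smoc2* and *Hmcn2*, and none was lower (background 2.37%). In *Fabp4* cells 5 of 22 were higher (22.7% against 3.7%), *Col4a1*, *Col4a2*, *Col18a1*, *Lamb1* and *Frem1*, and 6 lower (27.3% against 5.12%), *Col4a4*, *Col4a5*, *Lamb2*, *Smoc2*, *Ntn4* and *Hmcn2*. In *Crabp1* cells 10 of 24 were higher (41.7% against 9.15%), all 3 other collagens included, and 4 lower (16.7% against 8.93%), *Col4a3*, *Col4a4*, *Col4a5* and *Ntn4*. When cells positive for 1 subset only were set against cells of no subset, which changes both sides of the comparison, several of these calls were lost or turned. In *Fabp4* cells *Col18a1* alone was then higher in both libraries, and *Frem1* turned to a log2 ratio of -0.63 at puberty. In *Gdf10* or *Fmo2* cells 2 members were higher and 4 lower, and *Ntn4* had log2 ratios of 1.64 at puberty and -0.088 in the adult. In *Thbs4* or *Bmp5* cells 10 were higher and 5 lower, and *Col7a1* turned to -1.34 and -0.69. The shares of all genes given above belong to the main comparison. None was computed for cells of 1 subset against cells of none, so these counts have no background.

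**Figure D3:**
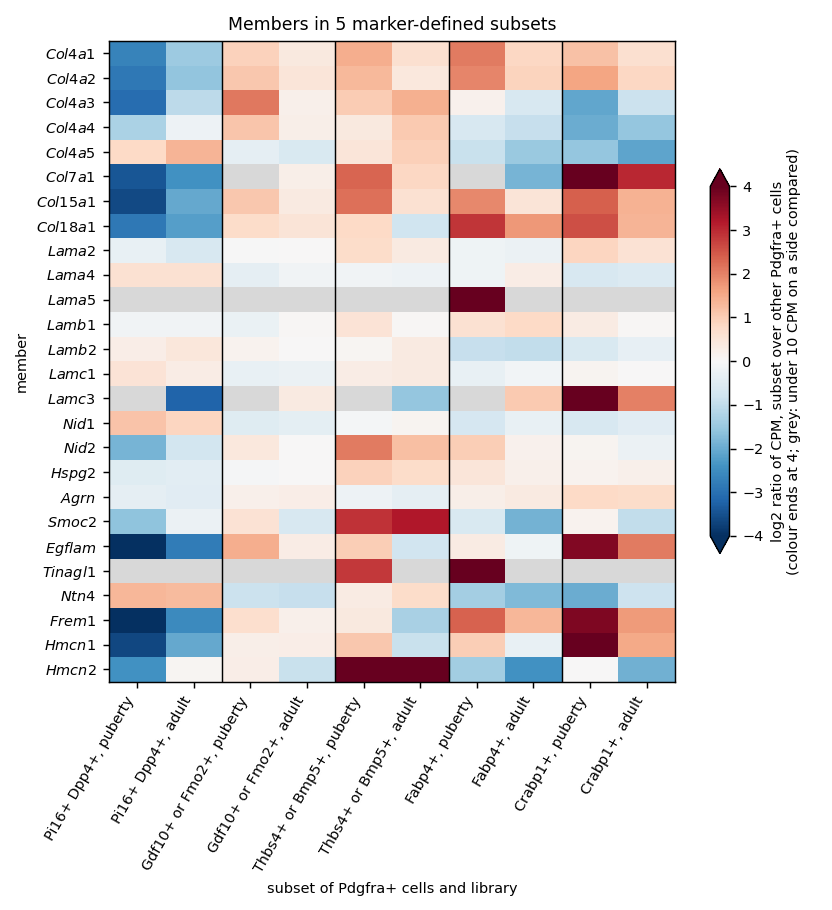
Log2 ratio of CPM in each marker-defined subset over the other Pdgfra+ cells (colour, red for higher in the subset) for the members compared (vertical axis), in the pubertal and the adult library (horizontal axis). The colour scale is cut at both ends, and members past an end share a colour. *Hmcn2* is darkest in the *Thbs4* or *Bmp5* columns, with ratios of 28.2 and 17.4. *Col7a1*, with a ratio of 75.0, is among the members past the end in the pubertal *Crabp1* column.

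Mural cells were compared with Pdgfra+ cells in the same way. Of 25 members, 6 were higher in mural cells of both libraries (24% against 23.4% of 8909 genes) and 14 were lower (56% against 19.8%). The share of higher members was thus close to that of all genes. The higher members were *Col4a5*, *Col4a6*, *Lama5*, *Egflam*, *Tinagl1* and *Ntn4*, and the lower ones *Col4a3*, *Col4a4*, *Col15a1*, *Lama2*, *Lama4*, *Lamb1*, *Lamc1*, *Nid1*, *Nid2*, *Hspg2*, *Smoc2*, *Frem1*, *Hmcn1* and *Hmcn2*.

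**Figure D4:**
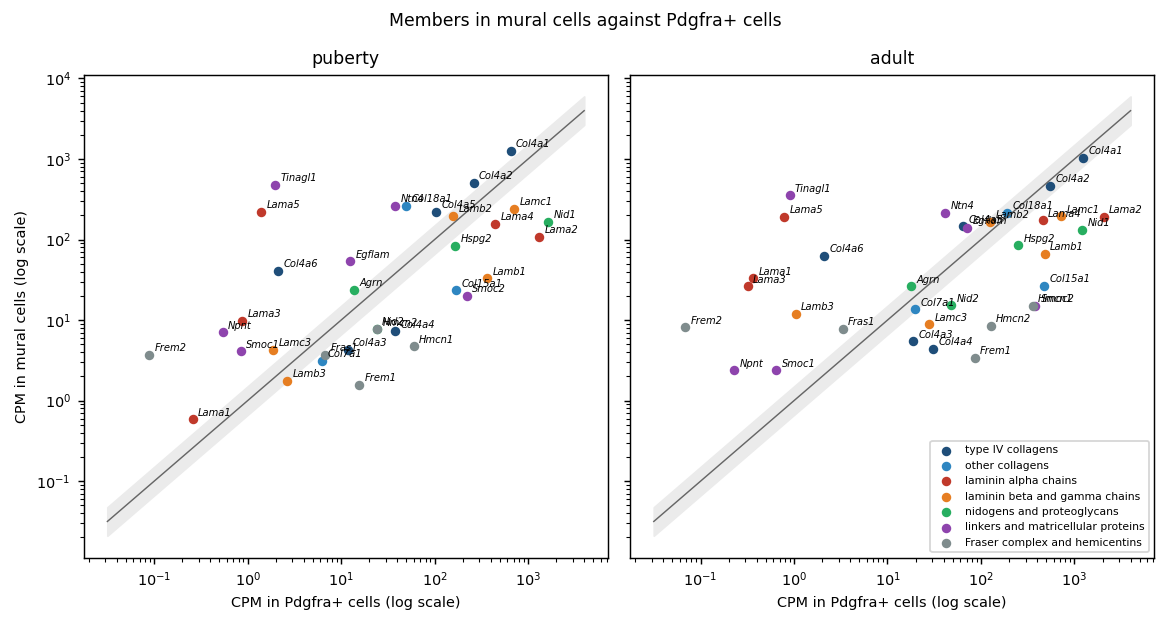
CPM of each member in mural cells (vertical axis, log scale) against Pdgfra+ cells (horizontal axis, log scale) of the pubertal (left) and adult (right) library, coloured by role. The line marks equal levels and the grey band less than 1.5-fold. *Tinagl1*, *Lama5* and *Col4a6* lie above the band in both libraries, and *Lama1* moves from 0.588 to 33.1 CPM in mural cells.

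The collagen chains *Col4a1* and *Col4a2*, which form the common type IV network of most basement membranes, varied together from group to group. *Col4a1* stood at 651 CPM in pubertal and at 1234 CPM in adult Pdgfra+ cells, a ratio of 1.90 (95% interval 1.89 to 1.91). *Col4a2* stood at 261 and 554 CPM, a ratio of 2.12 (2.10 to 2.14). Both were lower in *Pi16* and *Dpp4* cells than in the other Pdgfra+ cells, with *Col4a1* at 289 against 1851 CPM at puberty and at 657 against 1786 CPM in the adult. They were higher in *Fabp4* cells, where *Col4a1* gave 2033 against 484 CPM at puberty and 1967 against 1104 CPM in the adult. Through all of this the number of *Col4a2* UMIs per *Col4a1* UMI stayed between 0.368 and 0.532, in a range of groups in which *Col4a1* itself went from 289 to 2033 CPM. The ratio was higher in the adult than in the pubertal library in all Pdgfra+ cells (0.449 and 0.401) and lower in *Crabp1* cells (0.498 and 0.532).

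For both chains the stage ratio depended on the subset. In *Pi16* and *Dpp4* cells *Col4a1* was 2.27-fold and *Col4a2* 2.56-fold higher in the adult library, whereas in *Fabp4* cells the ratios were 0.97 and 1.16. With equal weights of the categories they came to 1.28 and 1.38. In mural cells *Col4a1* was at 1274 CPM at puberty and 1031 CPM in the adult, so that it was 1.96-fold above the Pdgfra+ level in the pubertal library and 0.83 of it in the adult one.

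The second pair, *Col4a3* and *Col4a4*, encodes chains known best from the glomerular basement membrane of the kidney. *Col4a3* was at 11.7 CPM in pubertal and at 18.8 CPM in adult Pdgfra+ cells (ratio 1.60, 1.53 to 1.68), but *Col4a4* was at 37.9 and 30.6 CPM (ratio 0.81, 0.78 to 0.83). The partners thus went in opposite directions in these sums, but with equal category weights the ratios were 1.09 and 0.69. Within *Gdf10* or *Fmo2* cells *Col4a4* was at 55.0 and 33.0 CPM, and within *Fabp4* cells at 25.4 and 17.2 CPM. *Col4a3* was at 21.3 and 20.1 CPM and at 13.2 and 12.7 CPM there, with overlapping counting intervals. Within *Thbs4* or *Bmp5* cells *Col4a3* was at 22.6 and 40.1 CPM, and within *Crabp1* cells at 2.83 and 10.9 CPM. *Col4a4* was at 48.7 and 54.2 CPM and at 9.67 and 11.6 CPM there, again with overlapping intervals. In none of these subsets did both partners differ beyond counting error. In *Pi16* and *Dpp4* cells *Col4a3* was at 4.39 and 12.2 CPM and *Col4a4* at 28.6 and 28.4 CPM. The number of *Col4a4* UMIs per *Col4a3* UMI went from 3.22 to 1.62 in all Pdgfra+ cells. It was lower in the adult library in each of the 5 subsets as well, for example 6.52 and 2.33 in *Pi16* and *Dpp4* cells. Among subsets *Col4a3* was highest in adult *Thbs4* or *Bmp5* cells, at 40.1 CPM against 14.9 CPM in the other cells. *Crabp1* cells had less of both chains in either library, with 12 UMIs of *Col4a3* and 41 of *Col4a4* at puberty.

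The third pair separated by cell type. *Col4a5*, whose chain joins both kinds of minor network, was the 1 member of the 24 compared that was at least 1.5-fold lower in adult Pdgfra+ cells, at 103 CPM in the pubertal and 64.1 CPM in the adult library (ratio 0.62, 0.61 to 0.63), and with equal category weights the ratio was 0.71. It was higher in *Pi16* and *Dpp4* cells than in the others, at 115 against 65.8 CPM at puberty and at 93.2 against 36.4 CPM in the adult. *Col4a6*, the chain that pairs with it in the membranes around smooth muscle, was at 2.11 CPM in Pdgfra+ cells of both libraries. In mural cells *Col4a6* was at 40.6 and 63.0 CPM, 19.3-fold and 29.9-fold above that level, and *Col4a5* at 220 and 146 CPM. There were 0.0204 and 0.0329 UMIs of *Col4a6* per *Col4a5* UMI in Pdgfra+ cells and 0.185 and 0.432 in mural cells. The adult mural value rested in part on 23 cells with an *Epcam* UMI, which held 82 of its 185 *Col4a6* UMIs. In mural cells with no UMI of *Dcn*, *Lum*, *Pecam1*, *Cdh5* or *Epcam*, *Col4a6* was at 40.9 and 41.0 CPM. These levels were 19.4-fold and 19.5-fold above the Pdgfra+ level. They rested on 119 and 54 UMIs beside 668 and 191 UMIs of *Col4a5*.

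Collagens XV and XVIII are proteoglycans of the basement membrane zone, and both were higher in the adult. *Col15a1*, whose product links the membrane to interstitial collagen fibrils, was at 171 CPM in pubertal and at 473 CPM in adult Pdgfra+ cells (ratio 2.76, 2.73 to 2.79), and in mural cells at 23.5 and 26.6 CPM. In mural cells with no UMI of *Dcn*, *Lum*, *Pecam1*, *Cdh5* or *Epcam* it was at 2.75 and 11.4 CPM, on 8 and 15 UMIs. *Col18a1*, the source of the fragment endostatin, was at 49.7 and 190 CPM (ratio 3.83, 3.75 to 3.91). With equal category weights the ratios were 1.56 for *Col15a1* and 2.47 for *Col18a1*. Both were low in *Pi16* and *Dpp4* cells, with *Col15a1* at 47.7 against 581 CPM at puberty and at 182 against 750 CPM in the adult. *Col18a1* was high in *Fabp4* cells, at 215 against 29.7 CPM at puberty and at 467 against 141 CPM in the adult. In *Crabp1* cells it was at 270.3 and 403 CPM, so that *Crabp1* cells had the highest level of the subsets at puberty and *Fabp4* cells in the adult. Mural cells stood at 263 and 215 CPM.

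*Col7a1* encodes the anchoring fibril collagen that fixes the epidermal membrane to the dermis. Its stage ratio in Pdgfra+ cells was 3.19 (3.01 to 3.38), from 6.22 to 19.8 CPM, but with equal category weights it was 1.13. The transcript was concentrated in *Crabp1* cells, at 201 against 2.68 CPM in the other pubertal cells and at 83.1 against 10.3 CPM in the adult ones. Within *Crabp1* cells the adult level was thus 0.41 of the pubertal one, although the sum over all Pdgfra+ cells was higher. After each cell was thinned to 3000 UMIs, 33.7% of pubertal and 15.7% of adult *Crabp1* cells had a *Col7a1* UMI, beside 0.688% and 2.67% of mural cells (57.8%, 34.3%, 1.15% and 3.72% before thinning).

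Laminin alpha chains carry the receptor-binding end of the trimer. *Lama2* and *Lama4* were higher in Pdgfra+ than in mural cells and *Lama5* was higher in mural cells. Mural cells carried *Lama2* and *Lama4* as well. *Lama2*, the chain of muscle and nerve membranes, was at 1313 CPM in pubertal and at 2057 CPM in adult Pdgfra+ cells (ratio 1.57, 1.56 to 1.57), and at 109 and 192 CPM in mural cells. In mural cells with no UMI of *Dcn*, *Lum*, *Pecam1*, *Cdh5* or *Epcam* it was at 18.2 and 138 CPM. *Lama4*, typical of vessels and fat, was at 446 and 457 CPM in Pdgfra+ cells (ratio 1.02, 1.01 to 1.03), and 1.52-fold and 1.53-fold higher in *Pi16* and *Dpp4* cells than in the others. *Lama4* was lower in mural cells, at 156 and 173 CPM.

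*Lama5*, the broadly used epithelial and vascular chain, was at 1.39 and 0.784 CPM in Pdgfra+ cells and at 221 and 191 CPM in mural cells, which held 76.6% of all its pubertal and 68.2% of all its adult UMIs. Mural cells with no UMI of *Dcn*, *Lum*, *Pecam1*, *Cdh5* or *Epcam* gave 250 and 216 CPM. Pubertal *Fabp4* cells listed 10.3 CPM of *Lama5* against 0.303 CPM in the other Pdgfra+ cells, and *Tinagl1* behaved alike, at 15.4 against 0.346 CPM. Mural markers moved with both: *Myh11* was at 256 CPM in these cells, and 14.2% of them carried *Myh11* or *Rgs5*, against 4.03% of all pubertal Pdgfra+ cells. Without the cells that carried either marker, *Lama5* was at 0.140 CPM and *Tinagl1* at 0.890 CPM in pubertal *Fabp4* cells, whereas *Col4a1* was at 2081 CPM and *Col18a1* at 229 CPM. *Lama1* and *Lama3*, chains of embryonic and of epithelial membranes, had 61 and 207 UMIs in pubertal and 90 and 79 UMIs in adult Pdgfra+ cells.

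Beta and gamma chains complete the laminin trimer. *Lamb1* was at 364 and 480 CPM in Pdgfra+ cells (ratio 1.32), *Lamb2* at 157 and 124 CPM (ratio 0.79) and *Lamc1* at 709 and 715 CPM (ratio 1.01), all within 1.5-fold. The beta chains parted in *Fabp4* cells. There *Lamb1* was 1.52-fold and 1.72-fold above the other cells and *Lamb2* at 0.52 and 0.51 of them. In mural cells *Lamb1* was at 33.1 and 66.8 CPM, far under the fibroblast level, while *Lamb2*, the beta chain of vessel and muscle membranes, was at 199 and 165 CPM, 1.27-fold and 1.33-fold above it.

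*Lamc3*, a gamma chain of restricted expression, had the largest stage ratio of the members compared. It was at 1.87 CPM (443 UMIs) in pubertal and 28.0 CPM (6937 UMIs) in adult Pdgfra+ cells, a ratio of 15.0 (13.6 to 16.5), and of 6.78 with equal category weights. The adult level was higher in each subset, by 11.7-fold in *Pi16* and *Dpp4* cells, 15.9-fold in *Gdf10* or *Fmo2* cells, 8.10-fold in *Fabp4* cells, 3.29-fold in *Thbs4* or *Bmp5* cells and 2.37-fold in *Crabp1* cells. *Crabp1* cells had the highest level in either library, at 34.2 against 1.28 CPM at puberty and at 81.0 against 20.03 CPM in the adult. *Lamb3*, a chain of the epidermal laminin 332, was under the 10 CPM minimum at 2.66 and 1.04 CPM (630 and 258 UMIs), a ratio of 0.39, and of 0.51 with equal category weights.

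The nidogens, which bridge laminin and collagen IV, went different ways. *Nid1* was at 1644 CPM in pubertal and at 1217 CPM in adult Pdgfra+ cells (ratio 0.74, 0.737 to 0.744), and *Nid2* at 24.1 and 47.6 CPM (ratio 1.98, 1.92 to 2.04). *Nid1* was higher in *Pi16* and *Dpp4* cells than in the others, by 2.19-fold at puberty and 1.83-fold in the adult, and *Nid2* was at 0.28 and 0.60 of the others there. *Nid2* was instead high in *Thbs4* or *Bmp5* cells, at 87.7 against 20.8 CPM at puberty and 91.5 against 39.4 CPM in the adult. Both nidogens were low in mural cells, with *Nid1* at 166 and 133 CPM. In mural cells with no UMI of *Dcn*, *Lum*, *Pecam1*, *Cdh5* or *Epcam* the direction between the libraries turned. There *Nid1* was at 61.5 and 119 CPM (ratio 1.93, 1.55 to 2.40).

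Perlecan and agrin, the heparan sulfate proteoglycans, showed smaller differences. *Hspg2* was at 165 and 251 CPM in Pdgfra+ cells (ratio 1.52, 1.498 to 1.537), and 1.91-fold and 1.65-fold higher in *Thbs4* or *Bmp5* cells than in the others. *Agrn* was at 13.9 and 17.95 CPM (ratio 1.30, 1.24 to 1.36). *Agrn* was 1.74-fold and 1.65-fold higher in *Crabp1* cells, and at 23.7 and 26.2 CPM in mural cells.

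Of the linkers and matricellular proteins, *Smoc2*, *Egflam* and *Ntn4* differed between fibroblast subsets. *Smoc2*, a calcium-binding matricellular protein, was at 220 CPM in pubertal and at 380 CPM in adult Pdgfra+ cells (ratio 1.73, 1.71 to 1.75), and at 1.16-fold with equal category weights. In *Thbs4* or *Bmp5* cells it was at 1240 against 166 CPM at puberty and at 1532 against 165 CPM in the adult. Within that subset the libraries differed by 1.24-fold. The larger share of such cells in the adult library moved with the summed level. After thinning to 3000 UMIs, 63.7% and 72.1% of *Thbs4* or *Bmp5* cells had a *Smoc2* UMI, beside 2.48% and 1.34% of mural cells (81.2%, 84.5%, 4.34% and 2.63% before thinning).

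*Egflam* encodes pikachurin, a ligand of dystroglycan. It was at 12.4 and 71.1 CPM in Pdgfra+ cells (ratio 5.74, 5.52 to 5.97), and at 2.68-fold with equal category weights. It was low in pubertal *Pi16* and *Dpp4* cells at 2.30 against 45.9 CPM, and high in *Crabp1* cells at 133 against 10.2 CPM and, in the adult, at 212 against 49.9 CPM. Mural cells also carried it, at 53.7 and 139 CPM. *Ntn4*, a netrin that binds laminin gamma chains, was at 37.9 and 41.6 CPM in Pdgfra+ cells (ratio 1.10, 1.07 to 1.13), at 263 and 214 CPM in mural cells, and 2.51-fold and 2.41-fold higher in *Pi16* and *Dpp4* cells than in the others.

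*Tinagl1*, a matricellular protein of vessel walls, was the member most confined to mural cells, which held 83.0% of its pubertal and 78.7% of its adult UMIs. It was at 477 and 356 CPM in mural cells and at 1.97 and 0.897 CPM in Pdgfra+ cells. After thinning, 70.3% and 58.0% of mural cells had a *Tinagl1* UMI, beside 0.361% and 0.204% of Pdgfra+ cells (80.8%, 69.8%, 0.938% and 0.481% before thinning). *Npnt*, a ligand of the integrin that *Itga8* encodes, and *Smoc1* stayed under 10 CPM in Pdgfra+ and in mural cells of both libraries, with 36 UMIs of *Npnt* and 21 of *Smoc1* in pubertal mural cells and 7 of each in adult ones.

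The hemicentins, *Frem1* and *Egflam* held the largest stage ratios after *Lamc3*. *Hmcn1*, a giant immunoglobulin-domain protein of the membrane zone, was at 59.5 CPM in pubertal and at 357 CPM in adult Pdgfra+ cells (ratio 6.00, 5.89 to 6.11). Its relative *Hmcn2* was at 24.5 and 127 CPM (ratio 5.21, 5.06 to 5.36). With equal category weights the ratios were 2.63 and 2.82. The subset with the highest level differed between both genes. *Hmcn1* was highest in *Crabp1* cells, at 1123 against 40.1 CPM at puberty and at 823 against 287 CPM in the adult, whereas *Hmcn2* was highest in *Thbs4* or *Bmp5* cells, at 293 against 10.4 CPM and at 619 against 35.6 CPM. *Hmcn2* in *Crabp1* cells was at 24.5 against 24.5 CPM at puberty and at 37.5 against 141 CPM in the adult. After thinning, 74.7% of pubertal and 74.8% of adult *Crabp1* cells had an *Hmcn1* UMI, beside 0.688% and 2.14% of mural cells (84.4%, 93.2%, 1.15% and 5.47% before thinning).

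For *Hmcn1* the adult *Crabp1* call depended on the comparison: among cells positive for *Crabp1* alone against cells of no subset the log2 ratio was 2.02 at puberty and -0.086 in the adult. In the adult library *Hmcn1* was also higher outside the *Crabp1* cells, at 16.3 and 138 CPM in *Pi16* and *Dpp4* cells and at 65.2 and 391 CPM in *Gdf10* or *Fmo2* cells of the pubertal and the adult library.

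Within the Fraser complex, which fastens embryonic epithelia to the dermis, *Frem1* was expressed apart from its partners. *Frem1* was at 15.7 and 85.6 CPM in Pdgfra+ cells (ratio 5.44, 5.25 to 5.64), and at 2.65-fold with equal category weights. It was high in *Crabp1* cells (170 against 12.9 CPM, and 216 against 65.9 CPM in the adult) and in *Fabp4* cells (55.8 against 10.9 CPM, and 175 against 69.7 CPM in the adult). *Fras1* was at 6.71 and 3.32 CPM and *Frem2* at 0.089 and 0.069 CPM in the same Pdgfra+ cells, with 21 and 17 UMIs of *Frem2*. In mural cells *Frem1* had 8 pubertal and 10 adult UMIs.

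The 10 members that stayed under 10 CPM in Pdgfra+ cells of both libraries were *Col4a6*, *Lama1*, *Lama3*, *Lama5*, *Lamb3*, *Npnt*, *Smoc1*, *Tinagl1*, *Fras1* and *Frem2*. Their levels ran from 0.069 to 6.71 CPM. *Col4a6*, *Lama5* and *Tinagl1* of these passed 10 CPM in mural cells of both libraries, and *Lama1*, *Lama3* and *Lamb3* in adult mural cells only.

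Between the stages, 10 of 25 members compared in mural cells were at least 1.5-fold higher in the adult library (40% against 17% of 9171 genes) and *Col4a5* was lower (4% against 6.17%). The higher members were *Col4a6*, *Col7a1*, *Lama1*, *Lama2*, *Lama3*, *Lamb1*, *Lamb3*, *Nid2*, *Egflam* and *Hmcn1*. Of these, *Col7a1*, *Lama1*, *Lama3*, *Lamb3*, *Nid2* and *Hmcn1* reached 10 CPM only in the adult sum. They thus entered the comparison through the library where they were higher. At a minimum of 50 CPM, 4 members were higher. *Lama1* had 3 UMIs at puberty and 97 in the adult, a ratio of 56.2 (18.7 to 277), *Lama3* 50 and 77 UMIs, and *Lamb3* 9 and 35 UMIs. Epithelial markers moved with them: the 5 genes *Epcam*, *Krt5*, *Krt14*, *Krt8* and *Krt18* summed to 34.9 CPM in pubertal and at 610 CPM in adult mural cells, where all 5 were higher, and 6 pubertal and 23 adult mural cells had an *Epcam* UMI. Those 23 cells, 5.03% of the adult mural cells, held 51 of the 97 *Lama1*, 55 of the 77 *Lama3*, 24 of the 35 *Lamb3*, 82 of the 185 *Col4a6*, 21 of the 40 *Col7a1* and 25 of the 44 *Hmcn1* UMIs.

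In the 472 pubertal and 228 adult mural cells with no UMI of *Dcn*, *Lum*, *Pecam1*, *Cdh5* or *Epcam*, *Col4a6* was at 40.9 and 41.0 CPM (ratio 1.004, 0.714 to 1.396), *Col7a1* had 9 and 5 UMIs, and *Lamb3* 0 and 2. *Egflam* remained higher, at 62.6 and 175 CPM (ratio 2.80, 2.29 to 3.41), as did *Lamb1* at 9.62 and 47.9 CPM and *Lama1* with 1 and 15 UMIs. That filter did not use keratin genes. In all mural cells *Krt14* was at 7.06 and 65.4 CPM and *Krt5* at 5.29 and 32.7 CPM. How many keratin-bearing cells passed the filter was not tested. Some mural markers also differed between the libraries. The pericyte genes *Kcnj8* (9.41 and 84.2 CPM) and *Abcc9* (37.6 and 328 CPM) were higher in adult mural cells. *Mcam* was at 241 and 220 CPM, *Cspg4* at 134 and 154, *Notch3* at 404 and 493, *Des* at 365 and 436 and *Acta2* at 7041 and 5244. *Rgs5* was at 396 and 1426 CPM and *Myh11* at 7106 and 6424 CPM, but both genes define the mural group. The part of these marker differences in the mural stage ratios was not tested.

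Genes that act on the membrane were read from 4 further lists in Pdgfra+ cells, against the background of 12% of all genes at least 1.5-fold higher and 5.09% lower in the adult. Of the receptors, 10 of 19 could be compared, 3 were higher and 1 was lower. *Itga8*, an integrin chain that binds nephronectin, was at 8.88 and 43.9 CPM (ratio 4.94), the proteoglycan *Sdc1* at 9.32 and 40.4 CPM (ratio 4.33) and the collagen and laminin receptor chain *Itga1* at 18.01 and 32.3 CPM (ratio 1.79). *Itga2*, the chain of a collagen receptor, was at 53.7 and 21.9 CPM (ratio 0.41). With equal category weights the ratios were 2.66 for *Itga8*, 2.35 for *Sdc1*, 1.26 for *Itga1* and 0.57 for *Itga2*. Of the assembly and crosslinking genes, none of 15 compared was higher (background 12%) and 2 were lower (background 5.09%), *Sparc*, a collagen-binding glycoprotein, from 10684 to 5638 CPM and the lysyl hydroxylase *Plod2* from 265 to 167 CPM. The median log2 ratio of that list was -0.07. Equal category weights gave 0.51 for *Sparc* and 0.63 for *Plod2*.

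Of 12 remodelling genes compared, *Mmp3* was higher (276 and 636 CPM) and *Adamts1* lower (1344 and 736 CPM), both named after their values were seen, and the list had a median log2 ratio of -0.04. Of 14 further basement membrane genes, 3 were higher: *Vwa1*, a perlecan-binding protein, at 4.04 and 16.1 CPM, *Col8a1*, a short-chain collagen, at 19.0 and 47.2 CPM, and *Matn2*, a matrilin, at 22.7 and 40.6 CPM. The median log2 ratio was 0.23 for the receptors and 0.32 for these further genes, beside 0.13 for all genes. With equal category weights the ratios were 1.78 for *Mmp3*, 0.56 for *Adamts1*, 2.17 for *Vwa1*, 1.31 for *Col8a1* and 1.08 for *Matn2*.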

How the data were processed

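Single-cell libraries of pubertal and adult mammary stroma were analysed from the deposited raw UMI counts. The authors deposited a filtered matrix of counts per gene and barcode for both, with no normalization. Per the submitters' processing notes these came from Cell Ranger 8.0.1 and mm10. The annotation release is not given in the sources used here. The kit, the pipeline release and the pubertal age in the study's methods differ from the labels, which were followed. Other stages and replicates were not analysed here, and 1 gene of the further list is not reported here.

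Cells with at least 500 genes and at most 10% mitochondrial UMIs were kept, at median depths of 11763 and 10842 UMIs. Counts were summed per gene, cell group and library and divided to CPM. Sums have exact Poisson, shares exact Clopper-Pearson and ratios conditional binomial 95% intervals, which cover counting error only. With 1 library per stage no test, p-value or leave-one-out was possible. A gene was compared with at least 10 CPM in 1 of the sums, and counted at 1.5-fold, for subsets and mural cells in both libraries. The members and lists were chosen with earlier results of these data known. All members were named, with full values for those reaching 10 CPM in Pdgfra+ or mural cells, and of the receptor, assembly and further lists those past 1.5-fold, at most 6 a list. Doublets were kept. In 1 alternative the highest Scrublet scores (0.4% per 1000 barcodes, 1881 pubertal and 2150 adult barcodes) and cells above the 99th percentile of genes were left out. Scrublet's own threshold marked 0 pubertal and 697 adult barcodes. Other alternatives changed the scaling (TMM, or the mean of each cell's CPM), the gene and mitochondrial filters, the depth (3000 UMIs a cell), the marker threshold, the CPM minimum, the fold, the category weights and the purity of subsets and mural cells. Leaving out Pdgfra+ cells with *Myh11* or *Rgs5* was added after seeing the data. Ratios and intervals were tested on simulated data. Python 3.11.15, numpy 2.4.6, scipy 1.17.1, scanpy 1.11.5, R 4.3.3 and edgeR 4.0.16 were used. Reads of a gene and an overlapping antisense gene were taken as the authors' counting assigned them.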

Additional observations from a re-analysis of the deposited data

Results flagged for a closer look

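*Col7a1* differed between the libraries in opposite directions in 2 cell groups. In mural cells the adult level was 4.34 times the pubertal one, on 40 and 16 UMIs, while in *Crabp1* cells it was 0.414 of it. The difference between the groups was not tested. In mural cells with no UMI of *Dcn*, *Lum*, *Pecam1*, *Cdh5* or *Epcam*, *Col7a1* had 9 and 5 UMIs.

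The *Thbs4* or *Bmp5* subset stood above the other Pdgfra+ cells at puberty and below them in the adult for 3 members. *Col18a1* was at 1.74 and 0.578 of the other cells, *Egflam* at 1.96 and 0.584, and *Hmcn1* at 2.12 and 0.536. None of these differences between the libraries was tested. Within the subset the 3 genes were higher in the adult by 1.42-fold, 1.91-fold and 1.73-fold, and in all Pdgfra+ cells by 3.83-fold, 5.74-fold and 6.00-fold.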

How the results depend on the processing

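Of 190 counts of members under the alternatives, 159 stayed within 1.5 times and 31 moved. Shares of all genes were computed for the main setting only, so the counts below have no background. In Pdgfra+ cells the 15 higher members became 9 at 2-fold and 7 with equal category weights, and the 1 lower became 0 under both and 7 with no CPM minimum. At 2-fold the higher and lower members came to 1 higher in *Pi16* and *Dpp4* cells, 0 lower in *Gdf10* or *Fmo2* cells, 4 higher in *Thbs4* or *Bmp5* cells, 2 higher and 2 lower in *Fabp4* cells, 2 lower in *Crabp1* cells and 0 lower between stages in mural cells. A minimum of 50 CPM left 0 lower in *Gdf10* or *Fmo2*, 3 lower in *Fabp4* and 1 lower in *Crabp1* cells, 9 lower in mural against Pdgfra+ cells, and 4 higher between stages in mural cells. No minimum gave 13 higher and 1 lower in *Thbs4* or *Bmp5*, 10 higher in *Fabp4* and 7 lower in *Crabp1* cells, 11 higher in mural against Pdgfra+ cells, and 4 lower between stages in mural cells. Markers with 2 UMIs gave 7 lower in *Crabp1* cells and 2 lower between stages in mural cells, TMM 3 lower between stages in mural cells, and removal of doublets 1 higher in *Gdf10* or *Fmo2* cells.

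With cells positive for 1 subset only, set against cells of none, *Gdf10* or *Fmo2* cells had 2 higher and 4 lower members, *Thbs4* or *Bmp5* cells 5 lower and *Fabp4* cells 1 higher. All 6 reversed log2 ratios arose there: *Ntn4* in pubertal *Gdf10* or *Fmo2* cells (1.64), *Col7a1* in *Thbs4* or *Bmp5* cells (-1.34 at puberty, -0.69 in the adult), *Frem1* in pubertal *Fabp4* cells (-0.63), *Col4a1* in pubertal *Crabp1* cells (-0.19) and *Hmcn1* in adult *Crabp1* cells (-0.086). That comparison uses fewer cells, 706 pubertal and 2507 adult cells of no subset, and otherwise the cause was not tested. Without Pdgfra+ cells carrying *Myh11* or *Rgs5* no count of members moved past 1.5 times. No paired analysis was possible because each stage had 1 library. Depth limits the mural values most, with 22679 pubertal and 11924 adult UMIs of all members together, and rare members such as *Frem2* cannot be compared at this depth.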

Other observations

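Cells with neither *Pdgfra* nor a mural marker, 1873 pubertal and 1516 adult cells, entered no comparison above. They carried the fibroblast gene *Dcn* at 6855 and 7857 CPM. The 34 members took 0.548% of their UMIs at puberty and 0.639% in the adult. *Hmcn1* was at 30.9 and 317 CPM there (ratio 10.3, 9.25 to 11.4), *Frem1* at 8.0004 and 74.4 CPM (ratio 9.30, 7.57 to 11.5) and *Egflam* at 7.55 and 58.7 CPM (ratio 7.78, 6.28 to 9.72). *Nid1* was lower in the adult, at 1602 and 997 CPM (ratio 0.62, 0.61 to 0.64). The make-up of these cells also differed between the libraries: Schwann cell markers summed to 606 and 443 CPM, endothelial markers to 67.4 and 154 CPM and skeletal muscle markers to 27.5 and 97.5 CPM. *Epcam* was at 0.523 CPM at puberty and 61.0 CPM in the adult in these cells, and *Lama3* at 0.972 and 4.28 CPM. The part of these cells in the ratios above was not tested.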
